A study of Homo sapiens with 18 samples.

Results

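The peroxiredoxins and the thioredoxin system are described here across all 6 groups of an RNA sequencing study of RPE-1 cells, a human retinal pigment epithelial line immortalized with telomerase (hTERT). The 10 genes are the peroxiredoxins PRDX1 to PRDX6, the thioredoxins TXN and TXN2, and the thioredoxin reductases TXNRD1 and TXNRD2. They were taken by name, not by their values, from the 33121 genes listed in the count table. The study asks what loss of MondoA does to senescence, autophagy and mitochondria, going by its title. MondoA, encoded by MLXIP, is a transcription factor that pairs with MLX to switch on genes in response to glucose metabolites.

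All cells were transfected with an siRNA, and each group held 3 libraries. The siRNAs were siControl, siMlx against MLX and siMondoA against MLXIP, each with and without doxorubicin (DXR), a DNA-damaging drug. DXR was given at 150 ng/ml for 3 days after 2 days of transfection. Names of untreated libraries carry the tag D0 and those of DXR libraries the tag D5, and the labels give no meaning for the tags, so treatment and a possible difference in harvest day cannot be told apart. A single line was studied, the number of siRNAs per target is not given, and nothing says that the libraries of a group came from separate cultures. The p-values therefore measure only the spread between these libraries. In bulk RNA, fewer cells that express a gene and less of its RNA per cell cannot be told apart.

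Peroxiredoxins are enzymes that reduce hydrogen peroxide and other peroxides with a reactive cysteine. In most of them the oxidised cysteine is then reduced by thioredoxin, which is itself reduced by thioredoxin reductase, a selenoprotein that uses NADPH. PRDX1, PRDX2, PRDX6, TXN and TXNRD1 work mainly in the cytosol, PRDX4 in the endoplasmic reticulum, and PRDX3, TXN2 and TXNRD2 in mitochondria, with PRDX5 there and in other compartments. TXNIP binds thioredoxin and holds it back, and TXNIP is a well known target gene of MondoA and MLX.

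Library totals ran from 15503423 to 29219280 counts, and all 10 genes passed the filter on low counts, as did 13676 genes in all. The siRNAs lowered their targets. MLXIP fell from 68.7 ± 4.6 CPM (counts per unit of library size after TMM scaling, mean ± SD, n = 3 libraries) with siControl to 3.85 ± 0.65 with siMondoA in untreated cells, and from 64.6 ± 1.7 to 2.36 ± 0.65 with DXR. MLX fell from 26.3 ± 0.95 to 7.002 ± 0.18 CPM with siMlx in untreated cells and from 26.5 ± 0.21 to 5.52 ± 0.53 with DXR. MLX was also higher with siMondoA, by 0.91 on the log2 scale in untreated cells and 0.72 with DXR. For the cell markers, CPM was taken without TMM scaling. The TMM factors were 1.02 to 1.07 in untreated libraries and 0.938 to 0.985 in DXR libraries. Only 4 of 12 markers of retinal pigment epithelium reached 1 CPM in any library, and the defining gene RPE65 stayed at or below 0.654 CPM. The fibroblast markers summed to 496 to 673 CPM in untreated libraries and 723 to 1021 CPM in DXR libraries, with 7 of 9 reaching 1 CPM. The keratins KRT8 and KRT18 made up nearly all of the epithelial sum, which ran from 340 to 824 CPM untreated and from 890 to 1328 CPM with DXR. The sums also moved with siMlx. In untreated cells the epithelial sum was 340 to 440 CPM with siMlx against 516 to 700 with siControl, and the retinal pigment epithelium sum 34.8 to 40.8 against 55.0 to 60.6. With DXR the epithelial sum was 890 to 987 CPM against 1070 to 1145, and the retinal pigment epithelium sum 31.2 to 36.2 against 44.3 to 50.2. They moved with siMondoA in DXR cells as well. There the epithelial sum was 1212.5 to 1328 CPM against 1070 to 1145 with siControl, and the fibroblast sum 723 to 786 against 813 to 895. In untreated cells the epithelial and fibroblast sums with siMondoA overlapped those with siControl. The part of these sums in the DXR, siMlx and siMondoA results was not tested.

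Measured per length of transcript, the levels in RPKM (reads relative to gene length and library size, deposited by the authors) ordered the genes from PRDX1 to TXNRD2. With siControl in untreated cells PRDX1 was the most abundant, at 310 ± 7.1 RPKM. TXN followed at 219 ± 10 RPKM, TXNRD1 at 211 ± 1.8 and PRDX2 at 208 ± 5.2. PRDX5 and PRDX3 were level with each other, at 151 ± 10 and 151 ± 4.3 RPKM. PRDX6 lay at 117 ± 4.8 RPKM and PRDX4 at 64.0 ± 0.32. The mitochondrial thioredoxin TXN2 was at 38.1 ± 2.4 RPKM and the mitochondrial reductase TXNRD2, the lowest of the 10, at 10.4 ± 0.21. PRDX1 ranked first and TXNRD2 last in each of the 6 groups. TXN held rank 2 in the 3 untreated groups and rank 5 in the 3 DXR groups, and TXNRD1 went from rank 3 to rank 2. PRDX5 went from rank 5 to rank 3 with DXR under each siRNA. PRDX3 held rank 6 with siControl and siMlx in untreated cells and rank 7 with DXR, and with siMondoA rank 9 in untreated cells and rank 8 with DXR.

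**Figure D1:**
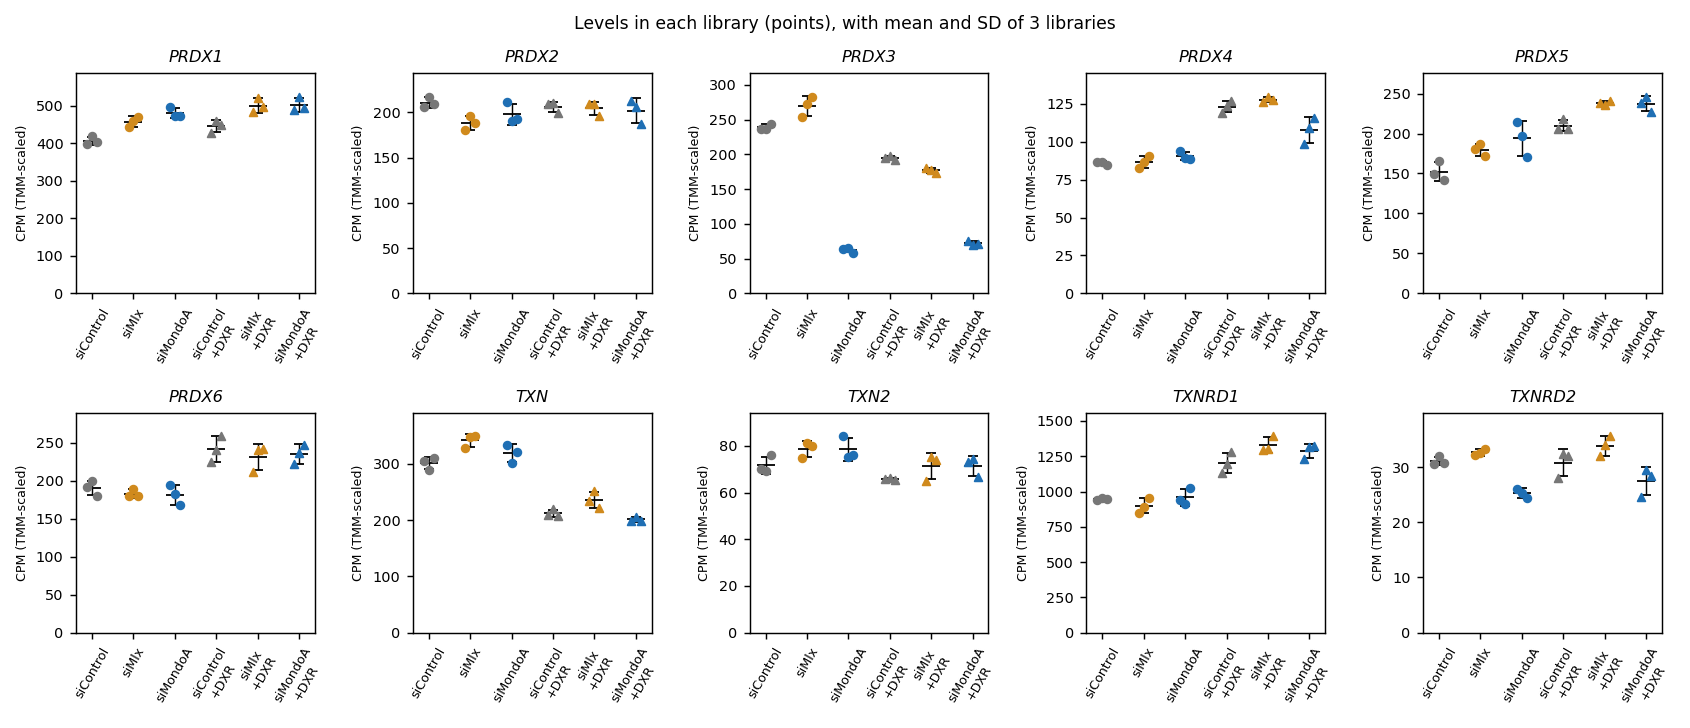
CPM of each of the 10 genes in each of the 18 libraries, by siRNA and treatment. Points are libraries, drawn with their group means. PRDX3 stands at 58.8 to 75.0 CPM in the 6 siMondoA libraries and at 173 CPM or more in all others, while no other gene has such a gap.

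The change that stood out was in PRDX3, the peroxiredoxin of the mitochondrial matrix. It lies on the minus strand at chr10:119167703-119178833 (GRCh38). With siControl in untreated cells its 3 libraries held 236, 237 and 244 CPM, and with siMondoA they held 63.9, 64.6 and 58.8. The groups did not overlap, and the siMondoA level was 26.1% of the siControl level (log2 fold change -1.94, SE 0.053, edgeR adjusted p = 9.71e-16). With siMlx the libraries held 254, 273 and 283 CPM, all above siControl, a rise of 0.18 on the log2 scale (SE 0.050, edgeR adjusted p = 0.0069). Set directly against each other in untreated cells, siMondoA was lower than siMlx by -2.11 (SE 0.054, edgeR adjusted p = 2.02e-16). The rise with siMlx did not pass when genes of low count were kept in the test (0.16, edgeR adjusted p = 0.0592).

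DXR moved PRDX3 in different directions depending on the siRNA. With siControl and DXR its libraries held 194, 197 and 192 CPM, below every untreated siControl library (log2 fold change -0.30, SE 0.050, edgeR adjusted p = 4.78e-05). With siMlx and DXR they held 181, 178 and 173 CPM, a fall of -0.61 from untreated siMlx cells (SE 0.051, edgeR adjusted p = 3.82e-09). With siMondoA and DXR they held 75.0, 69.5 and 71.4 CPM, all above the untreated siMondoA libraries (0.20, SE 0.053, edgeR adjusted p = 0.00332). Thus PRDX3 fell with DXR in 2 of the siRNA settings and rose in the siMondoA setting, where it was already low.

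The response of PRDX3 to DXR differed between siMondoA and siControl by 0.50 on the log2 scale (SE 0.073, edgeR interaction adjusted p = 0.000263) and between siMlx and siControl by -0.31 (SE 0.071, adjusted p = 0.00724). The order of its 6 group means was siMlx untreated, siControl untreated, siControl with DXR, siMlx with DXR, siMondoA with DXR and siMondoA untreated. No neighbours in that order had overlapping libraries. Within DXR cells, siMondoA lowered PRDX3 by -1.43 against siControl (SE 0.053, edgeR adjusted p = 2.27e-13) and by -1.30 against siMlx (SE 0.053, adjusted p = 3.93e-13). siMlx and siControl differed there by -0.13 (95% interval -0.24 to -0.03, edgeR adjusted p = 0.0526). That last difference passed with DESeq2 (adjusted p = 0.0394), with a filter of 1 CPM in 3 libraries (0.0445) and in a fit of only the groups compared (0.0487). The replicate libraries of PRDX3 lay close together, with an SD of at most 14.6 CPM in any group.

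MondoA and MLX bind E-box sequences, so the promoters in RefSeq (GRCh38.p14) were searched for the E-box CACGTG on both strands, from 250 bases before to 50 bases after each start. Of the 10 genes 7 were in that table, with 11 promoter entries. The E-box was in 2 of these 11 entries, which belong to 2 of the 7 genes. Across all 35116 promoter entries 7.26% held it. The windows around the E-box, written in the direction of the gene with the motif in capitals, are shown because one belongs to the gene that siMondoA lowered most and the other to a gene that it did not lower in untreated cells.
PRDX3: taggaaaacCACGTGtcacttgcc
PRDX4: gccggcgccCACGTGgcggggcgg
The PRDX3 window lies at chr10:119178955-119178978 on the minus strand, with the motif's first base 157 bases before the start. The PRDX4 window lies at chrX:23667401-23667424 on the plus strand, 83 bases before the start. No promoter of these 7 genes held the carbohydrate response element form, a pair of E-boxes at a fixed spacing, which was found in 2 of all promoters (0.0057%). The same search found none of the motifs in the 2 promoter entries of TXNIP. Only the exact letters were searched, so an element with mismatches in an E-box would have been missed. Absence here therefore does not show that TXNIP or the 7 genes lack such an element. These are matches of letters, and the libraries hold no measurement of binding.

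Of the other mitochondrial genes, TXNRD2 was lower with siMondoA, by less than PRDX3. TXNRD2, which keeps mitochondrial thioredoxin reduced, held 30.5, 32.0 and 30.7 CPM with siControl and 26.1, 25.3 and 24.3 with siMondoA in untreated cells. Its groups did not overlap, and it fell by 0.30 on the log2 scale (SE 0.073, edgeR adjusted p = 0.00224). It was lower with siMondoA than with siMlx as well, by -0.37 (SE 0.074) in untreated cells and -0.30 (SE 0.074) with DXR (edgeR adjusted p = 0.000233 and 0.00266). Against siControl in DXR cells the difference was -0.17 (95% interval -0.32 to -0.01, edgeR adjusted p = 0.108), and without siControl DXR replicate 1 it passed (-0.23, adjusted p = 0.0361). Whether counting used strand is not given, so the counts of TXNRD2 are uncertain where exons overlap on both strands.

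PRDX5 has a mitochondrial form besides others, and it rose with both knockdowns in untreated cells. Its untreated libraries held 150, 165 and 142 CPM with siControl, 215, 197 and 170 with siMondoA and 181, 187 and 172 with siMlx. Both knockdown groups lay wholly above siControl, by 0.35 with siMondoA (SE 0.070, edgeR adjusted p = 0.000383) and 0.24 with siMlx (SE 0.070, adjusted p = 0.0081). In DXR cells the libraries held 206, 218 and 206 CPM with siControl, 239, 246 and 228 with siMondoA and 238, 235 and 241 with siMlx. The groups again did not overlap, with differences of 0.18 for each knockdown that missed the threshold (edgeR adjusted p = 0.0735 for siMondoA and 0.0568 for siMlx). With the replicate number as a block both passed, at 0.18 (edgeR adjusted p = 0.0314) and 0.18 (0.0219). Both also passed in a fit of only the groups compared (adjusted p = 0.0458 and 0.0222). The siMlx difference passed as well with DESeq2 (0.0387), RLE scaling (0.0491), upper-quartile scaling (0.0238) and low-count genes kept (0.0406).

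TXN2, the mitochondrial thioredoxin, passed in none of the 11 comparisons. It ranged from 65.1 to 84.2 CPM over the 18 libraries. Its largest difference among the 5 comparisons with siControl was 0.13 with siMlx in untreated cells (95% interval 0.00 to 0.27, edgeR adjusted p = 0.0912). It passed there without siControl untreated replicate 3 (0.18, adjusted p = 0.0473), and with upper-quartile scaling (0.17, adjusted p = 0.0354). With siMondoA in untreated cells the difference was also 0.13 (edgeR adjusted p = 0.103), and 0.18 with upper-quartile scaling (adjusted p = 0.0316).

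The make-up of peroxiredoxin RNA differed with siMondoA, while its sum overlapped that of siControl in both conditions. The 6 peroxiredoxins summed to 1002 ± 22 RPKM with siControl, 995 ± 40 with siMondoA and 1079 ± 29 with siMlx in untreated cells. The 3 untreated siMlx libraries, at 1045 to 1098, lay above those of siControl, at 984 to 1026. In DXR cells they summed to 1046 ± 37, 1028 ± 39 and 1085 ± 41 RPKM. PRDX3 made up 15.1 ± 0.62% of that sum with siControl, 16.1 ± 0.53% with siMlx and 4.06 ± 0.16% with siMondoA in untreated cells. With DXR its share was 11.03 ± 0.24% with siControl, 9.58 ± 0.31% with siMlx and 4.19 ± 0.24% with siMondoA. PRDX1 took 30.9 ± 0.25% with siControl and 37.7 ± 1.1% with siMondoA in untreated cells, and PRDX5 15.1 ± 0.75% and 19.8 ± 1.3%. These shares sum to the whole, so a fall in one raises the others.

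**Figure D2:**
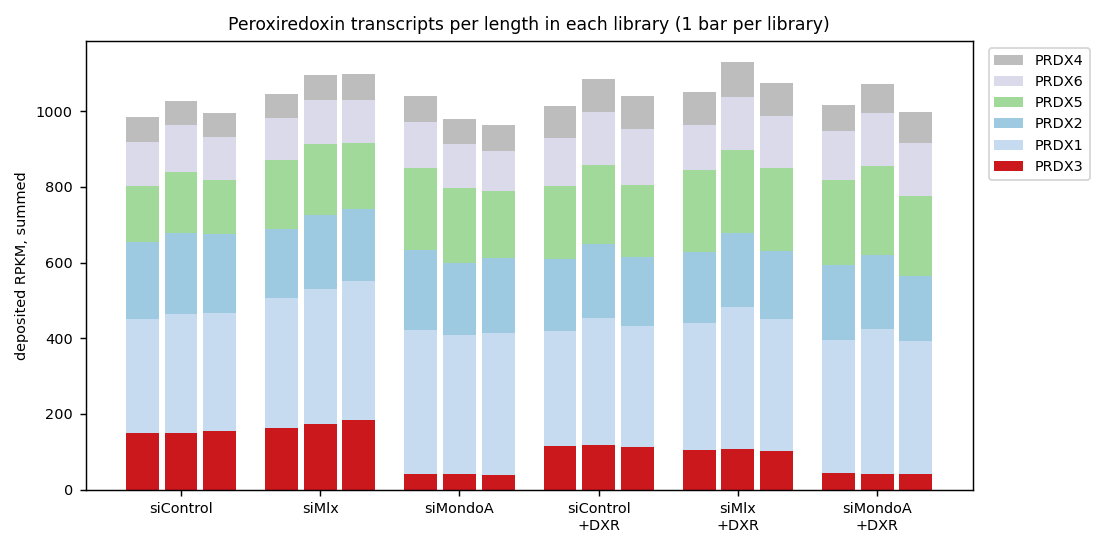
Summed RPKM of the 6 peroxiredoxins in each of the 18 libraries, arranged by group and stacked by gene. The group means of the sum (n = 3 libraries) are 995 to 1085 RPKM. The PRDX3 layer is thinnest in the siMondoA groups, at means of 40.3 and 43.0 RPKM.

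Among the cytosolic enzymes PRDX1, the most abundant peroxiredoxin, was higher with both knockdowns. Its untreated libraries held 398, 419 and 403 CPM with siControl, 497, 474 and 474 with siMondoA and 443, 461 and 471 with siMlx. No library of either knockdown overlapped siControl, and the rises were 0.24 (SE 0.050, edgeR adjusted p = 0.000428) and 0.17 (SE 0.050, adjusted p = 0.00759). In DXR cells both knockdowns were again higher, each by 0.17 (SE 0.050, edgeR adjusted p = 0.0155 for siMondoA and 0.0146 for siMlx). Both DXR calls were lost without siControl DXR replicate 1 (adjusted p = 0.08 and 0.0769), and also without siMondoA DXR replicate 2 (0.0821) and siMlx DXR replicate 2 (0.0729). With low-count genes kept in the test, the siMlx call in untreated cells and both DXR calls were lost (adjusted p = 0.0561, 0.0563 and 0.0533). The siMondoA call in DXR cells was also lost in a fit of only the groups compared (edgeR adjusted p = 0.0574).

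PRDX2 and PRDX6 moved little with the siRNAs. PRDX2, a peroxiredoxin abundant in red blood cells and neurons, lay between 180 and 217 CPM in all 18 libraries. It passed once, with siMlx in untreated cells (-0.16, SE 0.057, edgeR adjusted p = 0.025), and the call was lost without siControl untreated replicate 2 (adjusted p = 0.0895) or siMlx untreated replicate 1 (0.105), or with upper-quartile scaling (0.0845). PRDX6, which also acts as a phospholipase and relies on glutathione instead of thioredoxin, passed in neither knockdown. Its differences from siControl lay between -0.07 and -0.04 in the 4 comparisons (smallest edgeR adjusted p = 0.425).

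TXN, the cytosolic thioredoxin, held 305, 289 and 310 CPM with siControl, 329, 348 and 349 with siMlx and 334, 302 and 321 with siMondoA in untreated cells. siMlx lay above siControl in every library (0.18, SE 0.054, edgeR adjusted p = 0.00976), while siMondoA overlapped it (0.08, adjusted p = 0.237). The siMlx call was lost without siControl untreated replicate 2 (adjusted p = 0.0556). In DXR cells TXN was higher with siMlx by 0.15 (SE 0.055, edgeR adjusted p = 0.0432). That call was lost in a fit of only the groups compared (adjusted p = 0.0868) and with low-count genes kept (0.111). It was also lost without any 1 of siControl DXR replicates 1, 2 and 3 or siMlx DXR replicates 1 and 2 (adjusted p = 0.0561 to 0.209). In DXR cells siMondoA was lower than siMlx by -0.23 (SE 0.055, edgeR adjusted p = 0.00264).

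TXNRD1, the reductase that keeps TXN reduced, passed in none of the 4 knockdown comparisons. It held 943 to 957 CPM with siControl, 914 to 1028 with siMondoA and 851 to 956 with siMlx in untreated cells. With siMlx in DXR cells the difference was 0.14 (95% interval 0.02 to 0.27, edgeR adjusted p = 0.0756). It passed with the replicate number as a block (0.14, adjusted p = 0.0183), which raised the genes called in that comparison from 2 to 4. It also passed without siControl DXR replicate 3 (0.19, adjusted p = 0.037), with DESeq2 (0.15, 0.0451) and with upper-quartile scaling (0.18, 0.0259).

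Counted together, siMondoA in untreated cells raised 2 of the 10 genes, PRDX1 and PRDX5, and lowered 2, PRDX3 and TXNRD2. Of all genes tested there 46.6% passed, 23.3% higher and 23.3% lower. With siMlx in untreated cells 4 rose (PRDX1, PRDX3, PRDX5 and TXN) and PRDX2 fell, where 47.9% of all genes passed, 24.9% higher and 23% lower. In DXR cells siMondoA raised PRDX1 and lowered PRDX3 and PRDX4, where 24.8% passed, 10.9% higher and 13.9% lower. There siMlx raised PRDX1 and TXN and lowered none, where 30.2% passed, 14% higher and 16.2% lower. The counts of 4, 5, 3 and 2 in 10 are not far from these shares. With the replicate number as a block, siMondoA in DXR cells raised 2 and lowered 2, and siMlx in DXR cells raised 4. The median log2 fold changes of the 10 genes were 0.05, 0.10, -0.03 and 0.13 in those 4 comparisons, beside 0.02, 0.02, 0.01 and 0.01 over all genes tested. The 2 comparisons of each condition share their siControl libraries. Between siMondoA and siMlx, 2 of the 10 were lower with siMondoA in untreated cells, where 58.9% of all genes passed, 28.5% higher and 30.4% lower. In DXR cells 4 were lower, where 39% passed, 18.9% higher and 20% lower. None was higher with siMondoA in either by edgeR's test. None of the genes with a positive difference there had an unadjusted p under 0.05. Without siMondoA untreated replicate 3, PRDX5 was called higher with siMondoA than with siMlx in untreated cells (0.19, edgeR adjusted p = 0.0163).

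**Figure D3:**
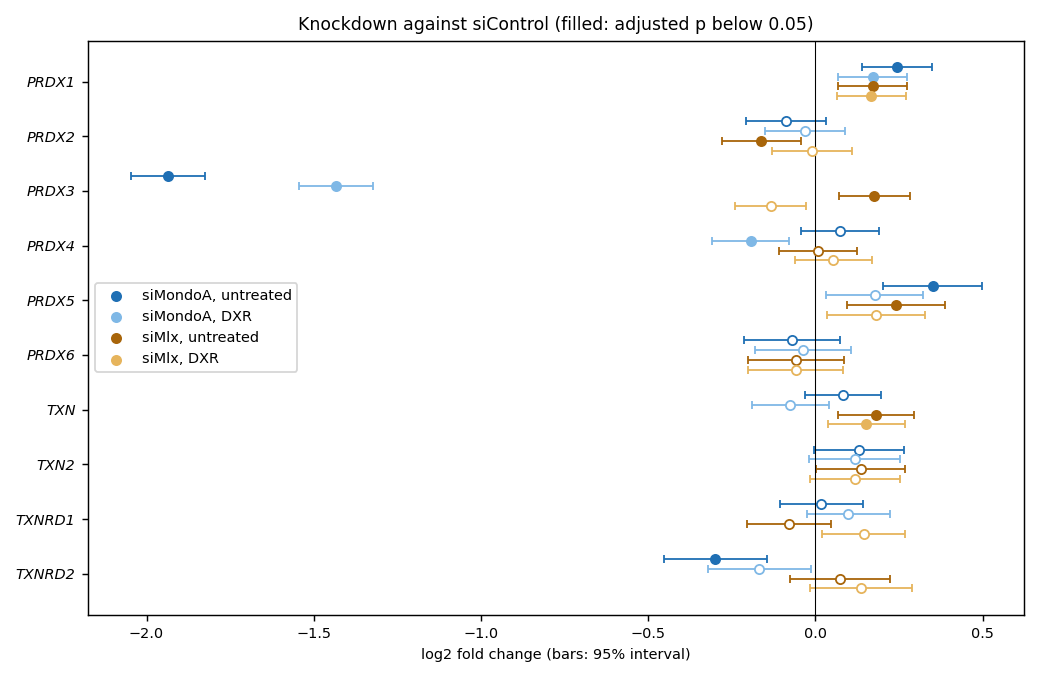
Log2 fold change of each of the 10 genes with siMondoA or siMlx against siControl, without and with DXR; bars are 95% intervals and filled points passed the test. PRDX3 lies at -1.94 and -1.43 with siMondoA, and all other points lie between -0.30 and 0.35.

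With DXR in siControl cells TXNRD1 was higher and TXN lower. Of the 10 genes 5 rose and 2 fell, where 56.7% of all genes passed, 28.1% higher and 28.6% lower, so the count of 7 in 10 is not far from that of all genes. TXNRD1 went from 943, 957 and 946 CPM in untreated libraries to 1135, 1195 and 1280 with DXR. The groups did not overlap, and the rise was 0.34 (SE 0.060, edgeR adjusted p = 6.41e-05). TXN moved the other way, from 305, 289 and 310 CPM to 210, 220 and 207, a change of -0.51 (SE 0.055, edgeR adjusted p = 2.23e-07). The reductase and its substrate thus changed in opposite directions, and with DXR the RPKM of TXNRD1 was 251 ± 15 and that of TXN 144 ± 6.5.

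The promoters of TXNRD1 hold the antioxidant response element core TGACNNNGC, the kind of sequence bound by NRF2, and 13.3% of all promoters hold it. It was found in both TXNRD1 entries and in no other of the 7 genes, searched on both strands. The windows are written in the direction of the gene, with the core or its reverse complement in capitals. They are shown because TXNRD1 is a textbook NRF2 target, which need not be the only such target among the 10.
TXNRD1, first entry, 99 bases before the start: cacgggctaTGACTTCGCtgttgtcac
TXNRD1, first entry, 8 bases before the start: cgtccttcgGCTCCGTCAgttcccaca
TXNRD1, second entry, 102 bases before the start: tggatttctGCTTTGTCAttctgactc
They lie on the plus strand of GRCh38.p14 at chr12:104215671-104215697, chr12:104215762-104215788 and chr12:104286921-104286947. PRDX1, PRDX6 and TXN2 were not in the promoter table.

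PRDX4, the peroxiredoxin of the endoplasmic reticulum, rose with DXR from 86.9, 86.8 and 84.9 CPM to 119, 124 and 127 with siControl. The rise was 0.52 (SE 0.055, edgeR adjusted p = 1.91e-07), and it was 0.56 with siMlx (SE 0.056, adjusted p = 4.2e-08). With siMondoA the libraries went from 93.7, 89.7 and 88.8 CPM to 98.6, 109 and 116, a smaller rise of 0.25 (SE 0.056, edgeR adjusted p = 0.000899). All 3 settings rose without overlap. The rise with siMondoA differed from that with siControl by -0.27 (SE 0.078, edgeR interaction adjusted p = 0.035). That call was lost without any 1 of siControl untreated replicates 1, 2 and 3, siMondoA untreated replicates 1 and 2, siControl DXR replicates 2 and 3, and siMondoA DXR replicates 1 and 2 (adjusted p = 0.0536 to 0.107).

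In DXR cells PRDX4 was lower with siMondoA than with siControl (-0.19, SE 0.055, edgeR adjusted p = 0.0139) and than with siMlx (-0.25, SE 0.055, adjusted p = 0.00141). The difference from siControl did not pass without siMondoA DXR replicate 1 (-0.13, adjusted p = 0.0929) or siControl DXR replicate 3 (-0.17, adjusted p = 0.0607), or in a fit of only these groups (adjusted p = 0.0521). In untreated cells no pair of siRNA groups differed in PRDX4 beyond the test.

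PRDX5 and PRDX6 rose with DXR under every siRNA. PRDX5 rose by 0.47 with siControl, 0.29 with siMondoA and 0.41 with siMlx (SE 0.070 in each, edgeR adjusted p = 1.33e-05, 0.00167 and 4.92e-05). PRDX6 held 192, 200 and 181 CPM in untreated siControl libraries and 225, 241 and 259 with DXR, a rise of 0.34 (SE 0.069, edgeR adjusted p = 0.000291). Its rise was 0.37 with siMondoA and 0.34 with siMlx, and the test of a different response gave no call for either gene (smallest edgeR adjusted p = 0.298). PRDX1 rose by 0.13 with siControl (SE 0.050, edgeR adjusted p = 0.0287), a call lost without siControl untreated replicates 1 or 3 or DXR replicates 2 or 3 (adjusted p = 0.0769 to 0.154). Its rise of 0.13 with siMlx (adjusted p = 0.0304) was likewise lost without siMlx untreated replicates 1 or 2 or DXR replicates 2 or 3 (0.0554 to 0.138). With low-count genes kept, both PRDX1 calls were lost as well (edgeR adjusted p = 0.256 with siControl and 0.183 with siMlx).

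Under both knockdowns PRDX4, PRDX5, PRDX6 and TXNRD1 rose with DXR and TXN fell, while PRDX3 went up with siMondoA and down with siMlx. With siMondoA 5 rose and 1 fell, where 54.2% of all genes passed, 26.2% higher and 28% lower. With siMlx 5 rose and 2 fell, where 62.1% passed, 30.9% higher and 31.2% lower. TXN fell by 0.66 with siMondoA (SE 0.055) and fell by 0.54 with siMlx (SE 0.055, edgeR adjusted p = 8.21e-09 and 6.46e-08). TXNRD1 rose by 0.42 with siMondoA (SE 0.060) and by 0.57 with siMlx (SE 0.060, edgeR adjusted p = 7.09e-06 and 9.89e-08). The test of a different DXR response passed for 2 of the 10 genes with siMondoA (PRDX3 and PRDX4), against 10.1% of all genes (5.84% with a positive and 4.28% with a negative difference). With siMlx it passed for PRDX3 alone, against 12.2% (6.43% positive and 5.81% negative). TXN2 and TXNRD2 passed with DXR under none of the siRNAs by edgeR. At an unadjusted edgeR p under 0.05, TXN2 was lower in 2 of the 3 and TXNRD2 in none. TXN2 passed with siMlx without siMlx DXR replicate 2 (-0.18, edgeR adjusted p = 0.0409) or siMlx untreated replicate 1 (-0.18, adjusted p = 0.0374). TXNRD2 passed with siMondoA without siMondoA DXR replicate 1 (0.19, edgeR adjusted p = 0.0419). PRDX2 also passed with DXR under none of the siRNAs. Its rise with siMlx was 0.12 (edgeR adjusted p = 0.0733), without overlap. That rise passed with DESeq2 (adjusted p = 0.0476), RLE scaling (0.043) and upper-quartile scaling (0.0405). It also passed with a filter of 1 CPM in 3 libraries (0.0457) and in a fit of only the groups compared (0.0499).

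**Figure D4:**
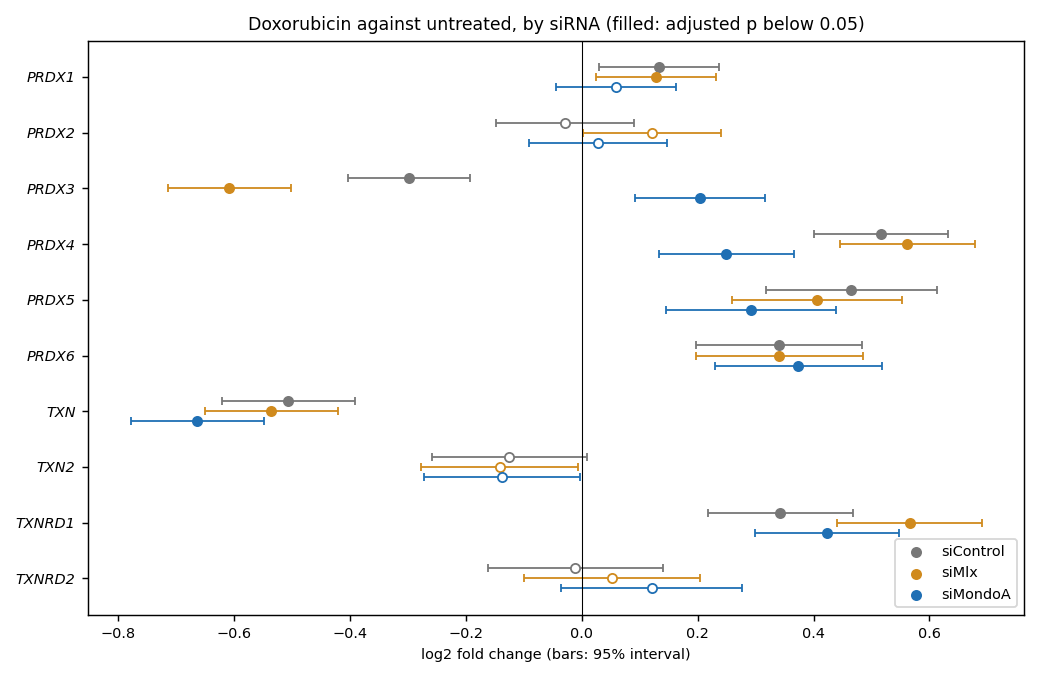
Log2 fold change of each of the 10 genes with DXR against untreated cells, for siControl, siMlx and siMondoA; bars are 95% intervals and filled points passed the test. TXNRD1, PRDX4, PRDX5 and PRDX6 lie above 0 under each siRNA and TXN below 0, while PRDX3 lies at -0.30, -0.61 and 0.20.

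Among the regulators of the system TXNIP changed most with the knockdowns. TXNIP, the inhibitor of thioredoxin, held 10.9, 10.9 and 17.6 CPM with siControl, 1.39, 1.26 and 0.907 with siMondoA and 1.18, 2.22 and 3.13 with siMlx in untreated cells. Both knockdown groups lay wholly below siControl, by -3.46 (SE 0.32, edgeR adjusted p = 3.56e-08) and -2.59 (SE 0.29, adjusted p = 3.61e-07). DXR raised TXNIP to 52.5, 66.7 and 69.8 CPM with siControl (2.25, edgeR adjusted p = 2.45e-08). With DXR it was again lower with siMondoA (-3.88) and siMlx (-2.73, adjusted p = 4.18e-10 and 1.2e-08). TXNIP thus fell with both knockdowns, and PRDX3 fell with siMondoA and rose with siMlx in untreated cells.

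SRXN1 encodes sulfiredoxin, which repairs over-oxidised peroxiredoxins. It held 107, 108 and 125 CPM with siControl and 131, 145 and 142 with siMlx in untreated cells, without overlap. It rose with siMlx by 0.30 in untreated cells and 0.30 with DXR (edgeR adjusted p = 0.000707 and 0.0012), and with siMondoA its differences were -0.03 and 0.07 (adjusted p = 0.757 and 0.478). siMondoA was lower than siMlx by -0.33 in untreated cells (edgeR adjusted p = 0.000213). SESN1 and SESN2, sestrins induced by p53, rose with DXR by 1.80 and 1.51 in siControl cells (edgeR adjusted p = 2.4e-11 and 9.79e-11). SESN3 fell by 1.67 with siMondoA and fell by 1.78 with siMlx in untreated cells (edgeR adjusted p = 4.53e-05 and 2.55e-05). TXNRD3, a reductase found mainly in testis, rose by 0.36 with DXR in siControl cells (adjusted p = 0.00602). All 6 of these genes rose with DXR under each siRNA, with a median of 1.13 in siControl cells beside -0.01 over all genes tested. Of all genes, 28.1% rose with DXR with siControl, 26.2% with siMondoA and 30.9% with siMlx. The SRXN1 call among them rests on a small change of 0.17 (adjusted p = 0.027, up to 0.126 in the alternatives), and for SESN3 the siControl libraries overlapped.

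Proteins with the same fold and partners of thioredoxin were called in both directions. Of all genes tested 23.3% rose and 23.3% fell with siMondoA in untreated cells, 24.9% and 23% with siMlx, and 28.1% and 28.6% with DXR in siControl cells. Those shares stand beside the counts of each list here. Of 21 other thioredoxin-fold genes, 3 rose and 5 fell with siMondoA in untreated cells, among them TXNDC15 (-0.95, edgeR adjusted p = 4.02e-09) and TXNDC16 (-0.69, adjusted p = 0.000129). With siMlx 6 rose and 5 fell, with PDIA3, a disulfide isomerase of the endoplasmic reticulum, at -0.50 (edgeR adjusted p = 4.1e-07). With DXR in siControl cells 6 rose and 6 fell. Of 10 enzymes and partners of thioredoxin, 4 rose and 5 fell with siMondoA in untreated cells. Ribonucleotide reductase is an enzyme that draws electrons from thioredoxin, and its RRM2 subunit of dividing cells fell by 2.20 with siMondoA (edgeR adjusted p = 1.75e-08). MAP3K5, a stress kinase held inactive by thioredoxin, fell by 1.28 (adjusted p = 1.02e-07). With DXR in siControl cells RRM2 fell by 1.88 and RRM2B, its p53-induced counterpart, rose by 1.78 (edgeR adjusted p = 9.14e-08 and 6.43e-14).

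Mitochondrial genes outside the 10 were counted in the same way. Of 20 tested genes for mitochondrial protein import, folding, redox balance, biogenesis and other roles, 1 rose and 6 fell with siMondoA in untreated cells. Their median was -0.09 beside 0.02 over all genes, where 23.3% of all genes rose and 23.3% fell. NNT, which makes NADPH in mitochondria, fell by 0.40 and TOMM20, an import receptor, fell by 0.34 (edgeR adjusted p = 1.12e-05 and 7.54e-06). With siMlx 10 rose and 2 fell, median 0.19, where 24.9% of all genes rose and 23% fell, with VDAC1 at 0.36 and HSPE1 at 0.50 (edgeR adjusted p = 1.15e-06 and 2.07e-05). With DXR in siControl cells 2 rose and 12 fell, median -0.32, where 28.1% of all genes rose and 28.6% fell, and the chaperone HSPD1 fell by 0.68 (edgeR adjusted p = 1.05e-09).

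Genes for NADPH, glutathione and selenium were called in both directions. The shares of all genes to set beside these counts are 23.3% higher and 23.3% lower for siMondoA in untreated cells, and 28.1% and 28.6% for DXR in siControl cells. Of 17 NADPH genes 6 rose and 6 fell with siMondoA in untreated cells, with MTHFD2, a mitochondrial folate enzyme, at -1.45 and PGD of the pentose phosphate pathway at 0.80 (edgeR adjusted p = 1.16e-10 and 1.59e-09). Of 16 tested glutathione and other antioxidant genes 2 rose and 2 fell, with GSS at 0.70 and GLRX at 0.66 (edgeR adjusted p = 1.96e-08 and 1.71e-05). With DXR in siControl cells 6 of those 16 rose and 9 fell, with GSR, glutathione reductase, at -0.80 (edgeR adjusted p = 2.01e-08). Of 13 genes of the NRF2 pathway 6 rose and 1 fell with siMondoA in untreated cells, led by SLC7A11, the cystine importer, at 1.53 and MAFG at 0.88 (edgeR adjusted p = 7.01e-08 and 1.86e-09). With DXR in siControl cells 2 rose and 5 fell, and NQO1 fell by 1.14 (edgeR adjusted p = 1.23e-10), while TXNRD1 rose. These 13 genes mix target genes with regulators such as BACH1 (0.33 with siMondoA in untreated cells) and KEAP1 (-0.38 with DXR in siControl cells). The counts therefore give no direction for the activity of the pathway. Of 18 tested genes for selenoproteins and their synthesis 3 rose and 4 fell with siMondoA in untreated cells, with SEPHS1 at -0.56 (adjusted p = 4.37e-07).

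The genes most like PRDX3 across the libraries lay outside the system. Likeness was measured as the root-mean-square difference of log2 CPM, each gene centred on its own mean, over the 18 libraries and 10091 genes. The 4 nearest were UFL1 at 0.19, KBTBD6 at 0.19, SLMO2 at 0.20 and PTK2 at 0.21, where the median gene lay at 0.87. UFL1 is the ligase for the ubiquitin-like UFM1 and PTK2 the focal adhesion kinase. UFL1 went from 44.7 ± 1.4 CPM with siControl to 9.76 ± 1.4 with siMondoA and 57.6 ± 0.80 with siMlx in untreated cells, and PTK2 from 252 ± 5.0 to 78.7 ± 1.2 and 252 ± 3.1. The nearest of the other 9 genes was TXNRD2 at 0.70. PRDX3 spanned 2.11 on the log2 scale over its 6 group means, TXN came next with 0.76, and PRDX2 was lowest with 0.16.

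Reads of near-identical copies may have been shared or lost in counting, which is uncertain for 5 of the 10 genes. GENCODE release 29 names 7 processed copies after TXN, 4 each after PRDX2 and PRDX3, and 1 each after PRDX1 and PRDX4, and the count table lists none of them. PRDX1 shares 379 exonic bases with MMACHC on the opposite strand, which held 2389 counts in all libraries against 168230 for PRDX1.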

How the data were processed

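Poly(A) RNA of 18 RPE-1 libraries was sequenced from stranded mRNA libraries, per the labels' protocols. Per the submitters' processing notes, bcl2fastq was used, with TopHat2 2.1.1 and GRCh38. Which program and annotation gave the counts, and whether strand was used, is not given in the sources used here. The values used are the read counts and the RPKM that the authors deposited for each gene and library. The gene length implied by count and RPKM was whole within 0.01 bases for 24845 of 24846 genes with a count. Replicates differed beyond counting error (chi-square per degree of freedom 3.75 to 16.4 over 18 pairs), so none was counted as a repeat.

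Groups were taken from the labels. Counts were fitted with edgeR 4.0.16 in R 4.3.3: filterByExpr by group, TMM scaling, all libraries in 1 fit with 1 mean per group and 12 residual degrees of freedom. Comparisons used the two-sided quasi-likelihood test, with p adjusted by Benjamini-Hochberg over 13676 genes, and a threshold of 0.05, and only rows of the described genes are printed. Levels are TMM-scaled CPM, except for the cell markers, whose CPM was not TMM-scaled. SE is that of the fitted log2 fold change. The script was tested on simulated counts with known changes.

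The genes and lists were chosen with earlier results of these data known. Named beside the 10 genes were MLXIP and MLX, the 6 regulators, up to the 2 genes of smallest p per other list and comparison, and the 5 genes nearest to PRDX3, of which 1 is not reported here. MMACHC was named for its overlap, after its values were seen. Older symbols in the table were matched to current ones (SLMO2 is printed as listed). Results were recomputed with DESeq2 1.42.0, upper-quartile or RLE scaling, low-count genes kept, 1 CPM required in 3 libraries, only the groups compared, the replicate number as a block, and leaving out each library. The labels give the groups the same replicate numbers. Same-numbered libraries correlated at -0.10 to 0.33 over 45 pairs, and 14 of 18 libraries correlated best with their own number. All 3 pairs were above 0.1 for siControl and siMondoA in untreated cells and for each pair of siRNA groups with DXR. For these comparisons the numbers may pair the samples. The reported calls used no pairing, and calls that changed with the replicate number as a block are printed beside them. Protein sequences and their motifs were not analysed here.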

Additional observations from a re-analysis of the deposited data

Results flagged for a closer look

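The response of PRDX3 to DXR differed between siRNAs in both tests of the difference. It was 0.50 higher on the log2 scale with siMondoA than with siControl (edgeR interaction adjusted p = 0.000263), and it kept its call and sign in all 19 alternatives. It was -0.31 with siMlx against siControl (adjusted p = 0.00724), also called in all 19. PRDX3 rose with DXR only with siMondoA among the 3 siRNAs, from 62.4 ± 3.2 to 72.0 ± 2.8 CPM (n = 3).

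The response of PRDX4 to DXR was smaller with siMondoA than with siControl, by -0.27 (edgeR interaction adjusted p = 0.035). PRDX4 rose from 90.7 ± 2.6 to 108 ± 8.7 CPM with siMondoA and from 86.2 ± 1.2 to 123 ± 3.8 CPM with siControl. This call was lost in 11 of 19 alternatives, with adjusted p up to 0.125 when low-count genes were kept and 0.0817 in a fit of only the groups compared.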

How the results depend on the processing

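Over the 110 results of the 10 genes, 1550 alternatives kept their side of the threshold in 1475, lost a call in 44, gained one in 31 and reversed none. Among the 1475 were 91 whose sign differed with neither value past the threshold. The number of the 10 genes called was least stable for siMlx in DXR cells: 2 as reported, 4 with upper-quartile scaling, 5 with DESeq2, 1 without the low-count filter, 4 with the replicate block, and 0 to 2 when each library was left out. For siMlx in untreated cells it was 5, 3 without the low-count filter, and 3 to 6 with libraries left out. For the interaction of siMondoA with DXR it was 2, 1 without the filter, 1 with only the groups compared, and 1 to 2 with libraries left out, while all genes called numbered 1384, and 918 to 1384 with libraries left out (918 without siMondoA untreated replicate 1). For the interaction of siMlx it was 1, and 2 with DESeq2 or the replicate block, through TXNRD1 (0.23, edgeR adjusted p = 0.0207 with the block). The block changed no other call of the 10 genes beyond those printed for PRDX5 and TXNRD1.

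Counted per read and not per length, the share of PRDX3 among peroxiredoxins in untreated cells was 18.6% with siControl, 19.8% with siMlx and 5.17% with siMondoA, and with DXR 13.7%, 11.97% and 5.31%. Upper-quartile scaling moved the split of called genes for the siMondoA interaction from 798 higher and 586 lower to 655 and 788, and for siMlx in DXR cells from 1908 and 2221 to 2506 and 1953. No scaling moved the median of all genes by over 0.0482. Calls of PRDX1, PRDX2 and TXN at differences near 0.15 were lost in the alternatives named beside them, and the cause was not tested.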
